A study of Rattus norvegicus with 6 samples.

Results

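The 4 mature miRNAs cut from the miR-150 and miR-342 hairpins were followed in rat lung after ischemia reperfusion (IR). They were taken by name, as every row called rno-miR-150 or rno-miR-342 with its arm (rno-miR-150-5p, rno-miR-150-3p, rno-miR-342-3p and rno-miR-342-5p), and they are 4 of the 693 miRNAs in the deposited table. The lungs came from male Sprague-Dawley rats of 7 to 8 weeks. In the 3 IR rats, anesthetized and ventilated, the left hilum was clamped for 45 min and blood flow was then restored. The 3 sham rats had the same opening of the chest with no clamp. No allele, transgene or drug treatment other than anesthesia is named for either group. The sources used here give neither the length of reperfusion nor the lobe that was sequenced. Small RNA of each lung sample was sequenced as 1 library. Each sample is taken here as 1 rat, because the paper calls them biological replicates.

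A miRNA hairpin is cut into a 5p and a 3p arm, and usually one arm is loaded into Argonaute and kept while the other is degraded. A loaded miRNA pairs with mRNAs mainly through its seed, bases 2 to 8, and lowers their translation and stability. miR-150 is known as a miRNA of mature resting B cells, T cells and NK cells, where it restrains the transcription factor Myb, and its level drops when lymphocytes are activated. miR-342 is carried in an intron of Evl, a gene for an actin regulator, and is known from lymphoid and some myeloid cells. Both are therefore often read as lymphocyte miRNAs. No lymphocyte mRNA was measured in these libraries, so the lymphocyte origin of the reads could not be checked here, and in whole lung fewer cells of a type and less RNA per cell cannot be told apart.

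The sequences of the miR-342 arms are shown because the arm that dominates sets which seed is present in the tissue. The RefSeq table used here matched 2 of the 4 mature sequences, both on rat assembly GRCr8, here 5′ to 3′ with the seed in capitals:
miR-342-3p: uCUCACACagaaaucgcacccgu
miR-342-5p: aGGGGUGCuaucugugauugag
miR-342-3p has 23 bases and lies at chr6:133329715-133329737 on the plus strand. miR-342-5p has 22 bases and lies at chr6:133329673-133329694. They occupy bases 61 to 83 and 19 to 40 of a hairpin of 99 bases. The hairpin lies within the span of Evl, which is on the same strand, and of the uncharacterized locus LOC102555052. Among the 724 mature rat miRNAs of the RefSeq table, 0 others shared the seed of miR-342-3p and 0 shared that of miR-342-5p, so no second miRNA in that table carries these seeds. Mir150, whose mature arms miR-150-5p and miR-150-3p complete the set, lies within no other annotated gene.

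The libraries held 3775663 to 11248166 miRNA reads, the fewest in IR replicate 2. Levels are given as counts per 1000000 reads (CPM) after TMM scaling, which corrects the totals for a few dominant miRNAs. A read is a whole miRNA, so the levels need no correction for length. IR was compared with sham by edgeR's quasi-likelihood test over all 418 miRNAs with enough reads, and an adjusted p under 0.05 after the Benjamini-Hochberg step was the threshold for a call. All 4 miRNAs of the set had enough reads. Of these, 1 was lower after IR and 0 were higher, where 44 of 418 tested miRNAs (10.5%) were called in either direction, 2.63% as lower and 7.89% as higher. At an unadjusted p under 0.05 it was 1 of the 4, beside 26.3% of all tested. All 4 log2 fold changes were below 0, as were those of 214 of the 418. Their median was -0.48, and the median of all tested miRNAs was -0.01. Together the 4 miRNAs summed to 1693 to 1766 CPM in the sham libraries and 972 to 1163 CPM in the IR libraries, most of it miR-150-5p.

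rno-miR-150-5p, the arm that targets Myb, was the most abundant of the 4 and the only one called. Its reads numbered 10936, 16727 and 13412 in sham replicates 1 to 3 and 6191, 2436 and 11102 in IR replicates 1 to 3. As a level this was 1378, 1483 and 1502 CPM in sham and 934, 694 and 936 CPM after IR. Every IR library lay below every sham library, as in 70 of the 418 tested miRNAs (16.7%, and 34.0% with no overlap in either direction), and IR replicate 2 was the lowest. The mean went from 1455 ± 67.0 to 855 ± 139 CPM (SD, n = 3 each). The log2 fold change was -0.77 (standard error 0.15, edgeR adjusted p = 0.0229), so that the IR level was 58.8% of sham (95% interval 46.2% to 74.8%). Among all miRNAs of a library, miR-150-5p ranked 57 to 59 in sham and 64 to 88 after IR. Its reads made up 0.130% to 0.156% of a sham library and 0.0645% to 0.0987% of an IR library. In level over the 6 libraries it stood next to miR-146a-5p, an inhibitor of NF-κB signalling, at a mean of 1155 against 1161 CPM, a difference smaller than the spread of either.

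The call was lost when either of 2 libraries was dropped. Without sham replicate 3 the log2 fold change was -0.75 with an edgeR adjusted p = 0.0592, and without IR replicate 3 it was -0.79 with an edgeR adjusted p = 0.0777. The range of the log2 fold change over the 6 fits that each dropped 1 library was -0.88 to -0.65.

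**Figure D1:**
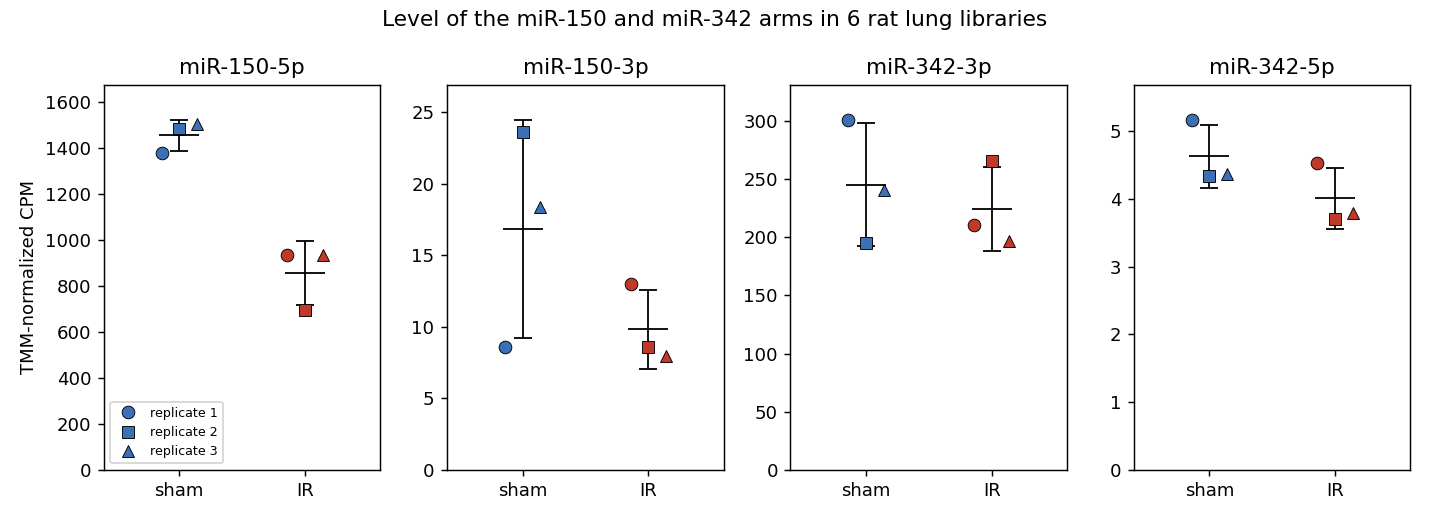
Level of each miRNA (vertical axis, TMM-normalized CPM, from 0) in the 3 sham (blue) and 3 IR (red) libraries. Symbols mark the replicate number, the wide dash is the mean and the bar the SD. The IR libraries of miR-150-5p (694 to 936 CPM) lie below all sham libraries (1378 to 1502 CPM), and the groups overlap for the other miRNAs.

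rno-miR-150-3p, the other arm of the hairpin and its usual discarded strand, had a log2 fold change of the same size with a much wider error. It had 68, 266 and 164 reads in sham and 86, 30 and 94 reads after IR, or 8.57, 23.6 and 18.4 CPM against 13.0, 8.55 and 7.92 CPM. Sham replicate 1 lay within the range of the IR libraries, so the groups overlapped. The log2 fold change was -0.78 (standard error 0.39, 95% interval -1.69 to 0.12, edgeR adjusted p = 0.249). The interval holds both 0 and the change of miR-150-5p. In sham, the highest library was 2.75 times the lowest for miR-150-3p and 1.09 times for miR-150-5p. Counting error, at 6.13% to 12.1% of the value in these sham libraries, was smaller than their coefficient of variation of 45.3%. Because the reads carry no molecular identifiers, this error and the intervals of read shares cover counting only.

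rno-miR-342-3p, the dominant arm of its hairpin, was not called. Its reads were 2390, 2197 and 2148 in sham and 1397, 931 and 2336 after IR, or 301, 195 and 241 CPM against 211, 265 and 197 CPM. The IR libraries lay inside the sham range, with sham replicate 1 the highest and sham replicate 2 the lowest of the 6. The means were 246 ± 53.3 CPM in sham and 224 ± 36.2 CPM after IR (SD, n = 3 each). The log2 fold change was -0.13 (standard error 0.21, edgeR adjusted p = 0.702), and its 95% interval of -0.60 to 0.34 corresponds to 65.8% to 127% of the sham level. Without sham replicate 1 it was 0.036. In the ranking of a library it held places 115 to 135 in sham and 122 to 134 after IR. Its mean over the 6 libraries, 235 CPM, fell between those of miR-195-3p at 240 CPM and miR-10b-5p at 232 CPM, which do not differ from it beyond their spread.

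rno-miR-342-5p, the minor arm, was the rarest of the 4. It was seen in 41, 49 and 39 reads in sham and in 30, 13 and 45 reads after IR, or 5.17, 4.34 and 4.37 CPM against 4.53, 3.71 and 3.79 CPM. The groups overlapped by 1 library, IR replicate 1. The log2 fold change was -0.20 (standard error 0.27, 95% interval -0.82 to 0.42, edgeR adjusted p = 0.661). The coefficient of variation was 10.1% in sham and 11.3% in IR, below the counting error of 14.3% to 27.7% of the value in single libraries. The interval holds both 0 and the change of miR-150-5p.

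By level the order was miR-150-5p, miR-342-3p, miR-150-3p and miR-342-5p in both groups, and no 2 neighbours overlapped in any library. The dominant arms differed from each other less than each did from its own partner. In sham, 4.57, 7.61 and 6.24 reads of miR-150-5p were found per read of miR-342-3p, and after IR 4.43, 2.62 and 4.75. IR replicate 2 was the lowest, and IR replicate 3 lay above sham replicate 1, so that the groups overlapped. The log2 ratio went from 2.59 ± 0.37 to 1.93 ± 0.47 (SD, n = 3 each), a difference of -0.66 (exact permutation test, two-sided, p = 0.2, adjusted p = 0.5 over 5 ratios). That miR-150-5p was called and miR-342-3p was not is thus not shown to be a difference between them. With 3 libraries against 3 the smallest p of this test is 0.1.

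In both hairpins nearly all reads came from the dominant arm. miR-150-3p made up 0.618%, 1.57% and 1.21% of the miR-150 reads in the sham libraries and 1.37%, 1.22% and 0.840% in the IR libraries. Sham replicate 1 was the lowest, with an exact (Clopper-Pearson) 95% interval of 0.480% to 0.783% that does not reach the 1.38% to 1.76% of sham replicate 2. miR-342-5p made up 1.69%, 2.18% and 1.78% of the miR-342 reads in sham and 2.10%, 1.38% and 1.89% after IR, and these 6 intervals overlap. Summed over the groups, the minor arm was 1.20% in sham and 1.05% after IR for miR-150, and 1.88% and 1.85% for miR-342. The log2 ratio of the major to the minor arm differed between IR and sham by -0.09 for miR-150 and 0.07 for miR-342 (exact permutation test, two-sided, p = 0.8 each, adjusted p = 0.8 over 5 ratios). In these ratios both arms come from the same library, so no scaling between libraries enters them.

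**Figure D2:**
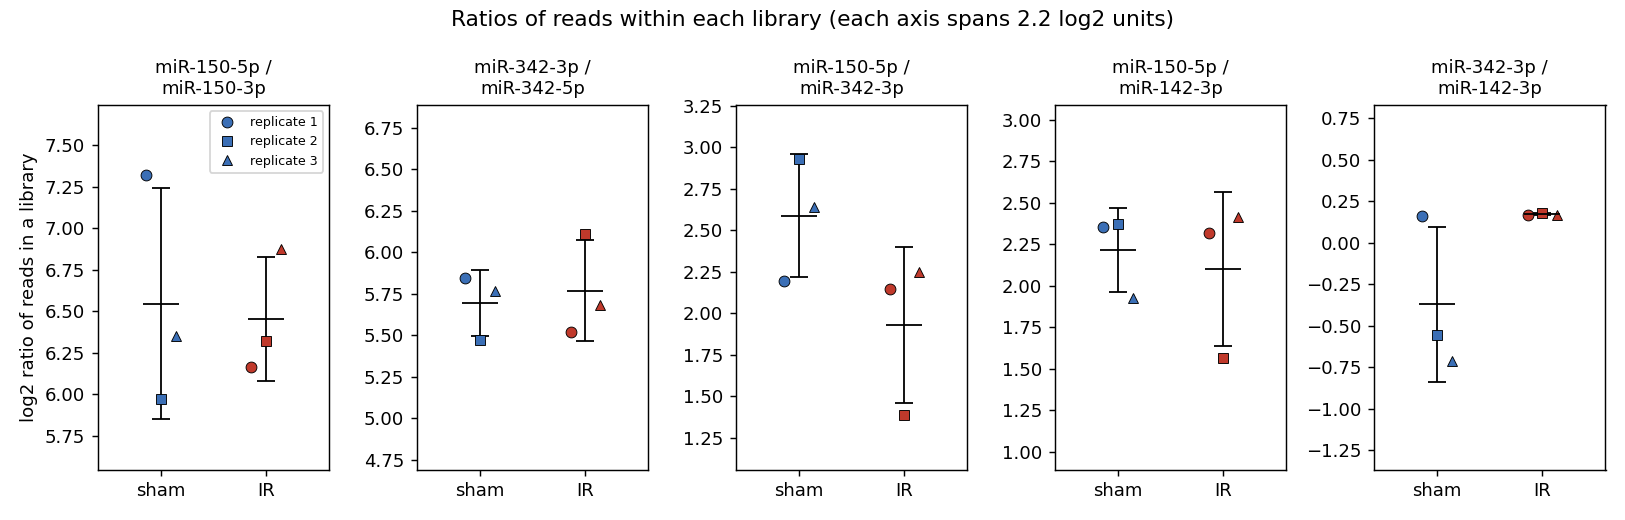
Log2 ratio of the reads of 2 miRNAs in the same library (vertical axis, each panel spans the same range) in sham (blue) and IR (red), with the mean as a dash and the SD as a bar, n = 3 each. The arm ratios of both hairpins overlap between the groups. The ratio of miR-342-3p to miR-142-3p is 0.17 to 0.18 in the IR libraries and -0.72 to 0.16 in the sham libraries.

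miR-142 is expressed across the blood lineages, so its reads in the same library give a leukocyte reference. miR-142-3p was at 269, 286 and 395 CPM in sham and 187, 234 and 175 CPM after IR. All IR libraries were below all sham libraries, but the log2 fold change of -0.67 did not pass (standard error 0.20, edgeR adjusted p = 0.0731). The more abundant arm, miR-142-5p, was at 984, 1708 and 1588 CPM in sham and 917, 763 and 1122.5 CPM after IR. Its groups overlapped. Ratios to miR-142-5p were not computed, so the ratios given here hold only for the 3p arm as reference. Per read of miR-142-3p there were 5.12, 5.18 and 3.80 reads of miR-150-5p in sham and 4.98, 2.96 and 5.34 after IR. The groups overlapped in this ratio, whose log2 difference was -0.12 (exact permutation test, two-sided, p = 0.8, adjusted p = 0.8 over 5 ratios). It was 0.15 without IR replicate 2. The log2 ratio of miR-342-3p to the same reference was 0.16, -0.56 and -0.72 in sham and 0.17, 0.18 and 0.17 after IR. The 3 IR libraries were close to each other and to sham replicate 1, and the other sham libraries were lower. The difference of 0.54 had the smallest p that 3 against 3 allow (exact permutation test, two-sided, p = 0.1, adjusted p = 0.5 over 5 ratios).

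Other miRNAs tied to blood cells were counted beside them. Of the 418 tested miRNAs, 26.3% had an unadjusted p under 0.05, DESeq2 called 71 (17.0%) and limma-voom 40 (9.57%), and the counts of the lists that follow are to be read against these shares. In the list of leukocyte and myeloid miRNAs, both arms of miR-142 and of miR-223, 0 of 4 passed edgeR's quasi-likelihood test, 2 had an unadjusted p under 0.05, and DESeq2 called 1 and limma-voom 0. Their median log2 fold change was -0.70, and their summed level was 1812 to 3046 CPM in sham and 1315 to 1645 CPM after IR. The most abundant, miR-142-5p, was at -0.61, and miR-223-3p, a miRNA of granulocytes and monocytes, at -0.78 with a standard error of 0.44. In the erythroid list of miR-451, miR-144 and miR-486, 0 of 4 tested passed, 2 had an unadjusted p under 0.05, and DESeq2 called 1 and limma-voom 0. The erythroid sum ran from 1234 to 4049 CPM over the sham libraries and from 1493 to 2155 CPM over the IR libraries, with a median log2 fold change of -0.93. The sums of the leukocyte list did not overlap between the groups, and those of the erythroid list did. By single miRNA, the groups did not overlap for 1 of the 4 leukocyte rows, miR-142-3p. This held for 0 of the 4 tested erythroid rows and for 34.0% of all tested miRNAs. Of the 4 leukocyte rows 0 were at 0 reads in any library, and of the 5 erythroid rows 1, miR-451-3p, was at 0 in some. The part of blood content in the result for miR-150-5p was not tested.

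Of the miRNAs that lymphocytes share with other cells, the miR-181 family, which tunes T cell receptor signalling during T cell development, had 0 of 8 tested called by edgeR's quasi-likelihood test. An unadjusted p under 0.05 was reached by 5 (26.3% of all tested), and DESeq2 called 2 (17.0% of all tested) and limma-voom 0. By single miRNA, the groups did not overlap for 5 of the 8, beside 34.0% of all tested miRNAs. All 8 log2 fold changes were below 0, with a median of -0.50. miR-181a-5p, its main member, was at 11602 ± 2590.3 CPM in sham and 7989 ± 515 CPM after IR (SD, n = 3 each; log2 fold change -0.54, edgeR adjusted p = 0.0963). In the inflammation-responsive list of miR-155, miR-146a, miR-146b and miR-147, 1 of 6 tested was lower (2.63% of all tested), 0 were higher (7.89% of all tested) and 5 did not pass. Their median was -0.47. An unadjusted p under 0.05 was reached by 2 (26.3% of all tested), and DESeq2 called 2 (17.0% of all tested) and limma-voom 1 (9.57% of all tested). For 2 of the 6 the groups did not overlap (34.0% of all tested). The one that edgeR called lower was miR-146a-5p (log2 fold change -0.85, edgeR adjusted p = 0.0247). Its relative miR-146b-5p was at 0.29 (edgeR adjusted p = 0.474), and miR-147 was at -1.19 (edgeR adjusted p = 0.0731).

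Lists of epithelial, endothelial and smooth muscle miRNAs were counted in the same way. In the miR-200 family of epithelium, edgeR called 0 of 9, with 3 at an unadjusted p under 0.05, 2 called by DESeq2 and 0 by limma-voom, where the shares of all tested were 26.3%, 17.0% and 9.57%. Its median log2 fold change was 0.33, and its sum was 13192 to 16188 CPM in sham and 19075 to 19618 CPM after IR, so the groups did not overlap. By single miRNA, the groups did not overlap for 4 of the 9, beside 34.0% of all tested miRNAs. For the endothelial miR-126 and the smooth muscle miR-143 and miR-145, 0 of 3 and 0 of 4 were called by edgeR, at an unadjusted p under 0.05, by DESeq2 or by limma-voom. Their medians were -0.01 and -0.12, and the groups did not overlap for 0 of the 3 and 1 of the 4. The part of the epithelial reads in the result for miR-150-5p was not tested.

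**Figure D3:**
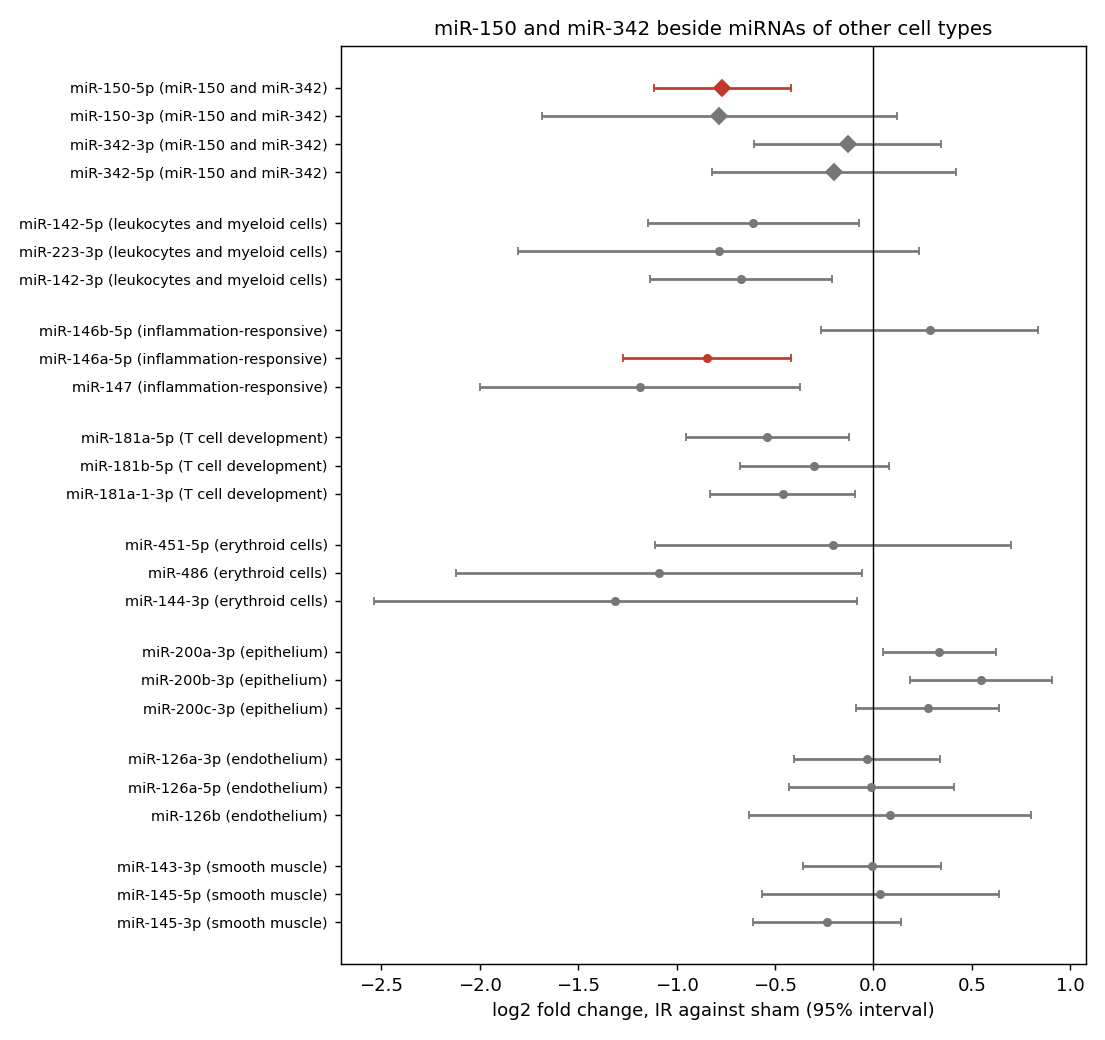
Change of IR against sham on the log2 scale (horizontal axis, bars are the 95% interval, n = 3 per group) of the 4 miRNAs (diamonds) and of miRNAs of 7 comparison lists (circles). Red marks an adjusted p under 0.05 from edgeR, which only miR-150-5p and miR-146a-5p of those drawn reached. The 3 members drawn of the leukocyte list lie at -0.61 to -0.78 and those of the epithelial list at 0.28 to 0.55.

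To find which miRNAs moved most like each dominant arm, every tested profile of log2(CPM + 1) over the 6 libraries was centred on its own mean and compared by its root mean square distance. The nearest to miR-150-5p was miR-199a-3p, a miRNA of mesenchymal cells, at a distance of 0.120 on the log2 scale. It was 1724 ± 157 CPM in sham and 1095 ± 127 CPM after IR (SD, n = 3 each), with a log2 fold change of -0.65 (edgeR adjusted p = 0.0229). Next came miR-3120 at 0.150, miR-20b-3p at 0.168, miR-181c-3p at 0.176 and miR-532-3p at 0.179, whose log2 fold changes of -0.57, -1.14, -0.75 and -0.52 did not pass the test. Of these, miR-20b-3p was scarce, with 35, 41 and 36 reads in sham and 15, 3 and 24 after IR. At its means of 4.03 CPM in sham and 1.71 CPM after IR, the added 1 CPM makes its profile flatter than its fold change. miR-342-3p was the 198th nearest to miR-150-5p, at 0.477, close to the median distance of 0.496 over all others. The nearest to miR-342-3p were miR-455-5p at 0.112, miR-423-3p at 0.118, miR-148b-3p at 0.121, miR-490-3p at 0.128 and miR-183-5p at 0.132. None of these 5 was called, and their log2 fold changes ran from -0.23 to 0.06. These distances describe the 6 libraries, which all profiles share.

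**Figure D4:**
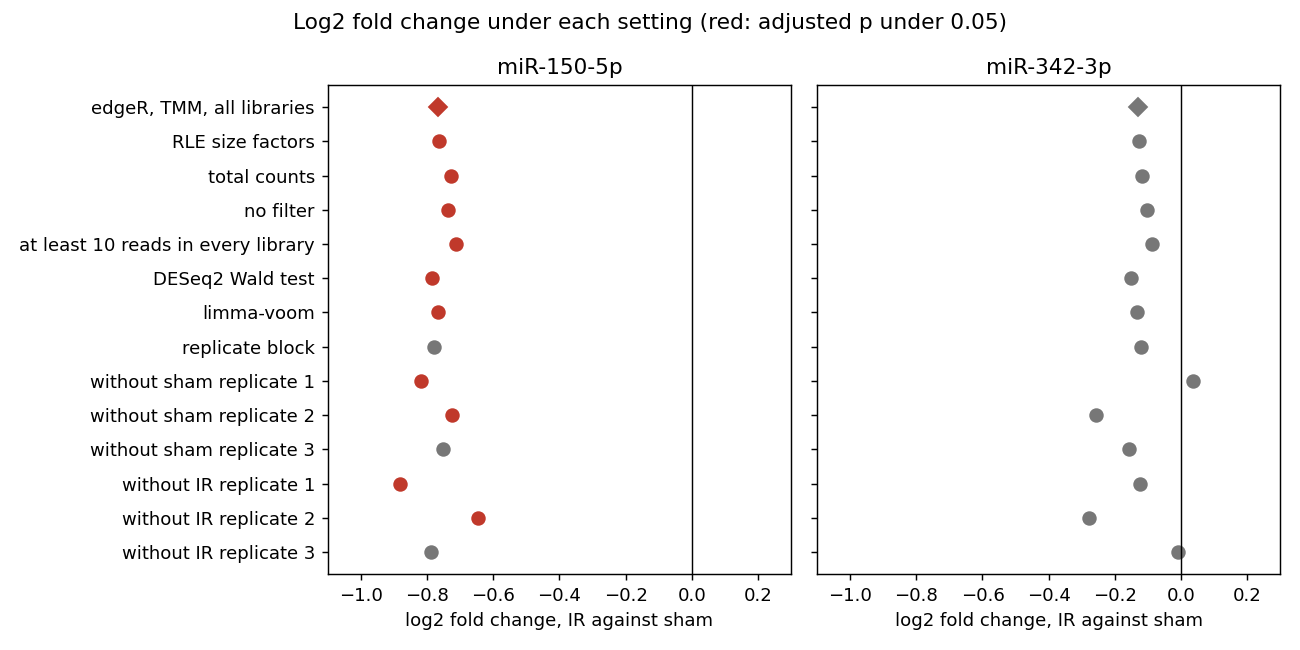
Change of IR against sham on the log2 scale (horizontal axis) of miR-150-5p and miR-342-3p under each setting (vertical axis), with the diamond for the test of the text. Red marks an adjusted p under 0.05. miR-150-5p lies between -0.88 and -0.65 in every setting drawn, and miR-342-3p between -0.28 and 0.036.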

How the data were processed

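Small RNA of 3 sham and 3 IR rat lungs was sequenced after adapter ligation, cDNA amplification and gel selection. The authors deposited whole read counts per miRNA and, beside them, TPM values, which equal the counts per 1000000 listed reads and carry no length term. The submitters' processing notes name Bowtie. The sources used here give no genome build, annotation, counting tool or rule for multiply matching reads. Samples were grouped by the treatment label, the file's NC columns being the control (sham) samples, and 0 value columns had no sample. Nothing but the paper's term biological replicates says that they were separate animals. If they were not, the p-values measure only the spread between samples.

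Counts were filtered with filterByExpr (at least 10 reads, 15 in total), scaled by TMM (factors 0.867 to 1.06) and tested with the quasi-likelihood test of edgeR 4.0.16 in R 4.3.3. The standard error is the size of the log2 fold change divided by the square root of F, and its 95% interval uses the test's degrees of freedom. Ratios within a library used log2 of reads + 0.5. The alternatives were RLE and total-count scaling, 2 other filters, DESeq2 1.42.0, limma-voom (limma 3.58.1), the replicate block, other pseudocounts and leaving out each library. The members, lists and ratios were chosen with earlier results of these data known. Besides the 4 miRNAs, the rule named the 5 nearest profiles of each dominant arm, up to 3 abundant members and every called member of each list, miRNAs of the same seed and neighbours in level. Not all of those are named in the text. No member's counts matched those of another row within 5% or 2 reads in every library. The same-numbered IR and sham libraries were not treated as pairs, since their deviations from the group means correlated at -0.234, -0.387 and -0.183. Figures were drawn with matplotlib 3.10.9 in Python 3.11.15.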

Additional observations from a re-analysis of the deposited data

How the results depend on the processing

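The log2 fold change of miR-150-5p was -0.78 to -0.71 under the 7 other settings and passed 6 of them, with an adjusted p between 0.000323 and 0.0918. With the replicate block it was -0.78 with an adjusted p = 0.0918, and the block left 0 miRNAs called by edgeR over all 418 (84 at an unadjusted p under 0.05); the replicate numbers are not known to pair the rats. With 1 library left out the log2 fold change of miR-150-5p was -0.88 to -0.65, that of miR-342-3p -0.28 to 0.036, that of miR-150-3p -1.11 to -0.41 and that of miR-342-5p -0.35 to -0.11. The last 3 were not called in any setting run. Over all miRNAs, 44 of 418 were called, and 26 of 341 with 10 reads asked in every library. DESeq2 called 75 of the 491 to which it gave an adjusted p, and 71 of these 75 are among the 418. With 1 library left out, 410 to 450 miRNAs were tested and 2 to 57 were called. The lowest counts were 2 without IR replicate 3, 17 without IR replicate 2, 21 without sham replicate 3 and 24 without IR replicate 1. The small differences in arm ratio changed sign. For miR-342 it was -0.030 with a pseudocount of 5 reads and -0.10 to 0.20 with 1 library left out, and for miR-150 it was -0.38 to 0.29. The difference in the ratio of miR-150-5p to miR-142-3p was -0.28 to 0.15, that of miR-150-5p to miR-342-3p -0.86 to -0.39 and that of miR-342-3p to miR-142-3p 0.37 to 0.81. The cause of these changes was not tested. With 3 against 2 libraries the exact test cannot go below 0.2, and with 3 pairs the sign-flip test cannot go below 0.25.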
